A study of Mus musculus with 2 samples.

Results

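Wnt ligands and their secreted inhibitors were followed in single cells of perivascular adipose tissue (PVAT) in mice, which is the fat that wraps the aorta. The members were 10 genes taken by symbol from the 31053 genes of the deposited tables: the ligands Wnt2, Wnt5a and Wnt5b, the Frizzled-related inhibitors Sfrp1, Sfrp2, Sfrp4 and Frzb, the Dickkopf genes Dkk2 and Dkk3, and Wif1. All 10 were present in both libraries. One library came from young and one from old wild-type mice, both labelled as primary perivascular stromal cells. Age in months, sex, how many mice were pooled, which stretch of aorta was used and whether cells were cultured were not stated in the material used here. With 1 library per age, the spread between animals is unknown. An old to young ratio therefore compares these 2 libraries and has no test, and age cannot be told apart from anything else that differed between them. Intervals given below are 95% intervals and cover counting error only.

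Wnt proteins are secreted lipid-modified signals that bind Frizzled receptors, either with the co-receptors Lrp5 and Lrp6, which stabilises beta-catenin, or with Ror and Ryk receptors, which does not require it. The Frizzled-related proteins carry a Frizzled-like domain and bind Wnts outside the cell, Wif1 also binds Wnts directly, and Dickkopf proteins such as Dkk2 act at Lrp5 and Lrp6. In fat, beta-catenin-dependent Wnt signalling is known to hold back adipocyte differentiation, and in vessel walls it takes part in smooth muscle and endothelial growth.

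After filtering, the young library held 11453 cells and the old library 12207, with medians of 8916 and 9230 unique molecular identifiers (UMIs, each standing for 1 captured transcript) per cell. The libraries had 275 cell barcodes in common. Cells were sorted into types by marker genes, none of which was a member. The mesenchymal gate, which asks for at least 4 of 8 collagen and fibroblast genes and no other type, held 10193 young cells (89.0%) and 10310 old cells (84.5%), so most cells carried the markers of the labelled stromal type. Blood endothelial cells numbered 30 (young) and 1025 (old), mesothelial cells 235 and 46, Schwann cells 39 and 51, adipocytes 6 and 89, and macrophages 1 and 97. No cell passed the lymphocyte gate, and 949 young and 552 old cells passed no gate. Levels are UMIs of a gene per 1000000 UMIs of the class (CPM), and they fall with fewer expressing cells or with less RNA per cell, which cannot be told apart in such sums.

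Sfrp2, Frzb and Dkk2 were among the inhibitors that differed most between the libraries, and the sequences around their transcription starts are shown for that reason. RefSeq promoters, 250 bases before to 50 bases after the start, were matched by symbol for 6 of the 10 members. They were searched on both strands for the TCF/LEF forms CTTTGAT and CTTTGAA, to which the transcription factors of beta-catenin signalling bind, and for the TATA form TATAAA. Capitals mark the only match in these 3 windows. Sfrp2 lies at chr3:83766071-83766370 on the plus strand, Frzb at chr2:80447347-80447646 on the minus strand and Dkk2 at chr3:132085042-132085341 on the plus strand (GRCm38.p6).
Sfrp2: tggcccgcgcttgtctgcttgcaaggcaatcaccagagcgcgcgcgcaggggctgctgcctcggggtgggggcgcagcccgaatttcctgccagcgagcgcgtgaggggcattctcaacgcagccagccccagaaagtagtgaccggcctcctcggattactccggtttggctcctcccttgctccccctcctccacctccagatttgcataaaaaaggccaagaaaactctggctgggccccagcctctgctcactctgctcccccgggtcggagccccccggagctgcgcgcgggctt
Frzb: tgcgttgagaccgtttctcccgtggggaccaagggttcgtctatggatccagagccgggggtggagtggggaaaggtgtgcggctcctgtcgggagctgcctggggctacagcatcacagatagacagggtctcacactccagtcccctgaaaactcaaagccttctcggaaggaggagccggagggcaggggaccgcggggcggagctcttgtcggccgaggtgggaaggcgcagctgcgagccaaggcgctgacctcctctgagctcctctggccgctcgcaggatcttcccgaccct
Dkk2: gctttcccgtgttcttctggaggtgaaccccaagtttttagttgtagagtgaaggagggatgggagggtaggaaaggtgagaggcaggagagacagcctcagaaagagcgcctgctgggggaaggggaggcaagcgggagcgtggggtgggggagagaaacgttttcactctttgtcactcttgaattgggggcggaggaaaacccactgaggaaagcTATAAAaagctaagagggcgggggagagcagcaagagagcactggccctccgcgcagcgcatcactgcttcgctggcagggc

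The Dkk2 window held TATAAA from position -32, counting -1 as the base just before the start, and 13.6% of the 32851 promoters in the table held these letters on either strand. No TCF/LEF form was found in the 3 windows, and 8.65% of all promoters held one. Among the other member promoters, CTTTGAT stood at -71 of 1 of the 3 Wnt5b starts and TATAAA at -232 of Wif1. G and C made up 66% of the Sfrp2 window, 64.7% of the Frzb window and 57.7% of the Dkk2 window, against a median of 52.7% over all promoters.

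In mesenchymal cells the ligands differed little between the libraries. Wnt5a, a ligand best known for beta-catenin-independent signalling (chr14:28504750-28527448), had 27.1 CPM in young and 26.9 CPM in old cells, a log2 ratio of old to young of -0.01 (-0.08 to 0.07). Wnt2, a ligand that signals through beta-catenin (chr6:17988940-18030585), stood at 4.0 and 3.17 CPM, young before old here and below, a log2 ratio of -0.33 (-0.54 to -0.13). Wnt5b (chr6:119432531-119544347) stood at 2.12 and 2.89 CPM, a log2 ratio of 0.44 (0.19 to 0.70). None of these ratios reached the 1.5-fold difference counted here, while the intervals of Wnt2 and Wnt5b left out 0. A Wnt5a UMI was found in 21.01% of young and 22.1% of old mesenchymal cells, a Wnt2 UMI in 3.31% and 3.03% and a Wnt5b UMI in 2.07% and 2.88%.

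The Frizzled-related inhibitors were higher in the old library. Sfrp2 (chr3:83766321-83774316) stood at 16.8 CPM in young cells, from 1748 UMIs, and at 38.2 CPM in old cells, from 4179 UMIs, which is 2.27-fold higher (log2 1.18, 1.10 to 1.27). Sfrp4 (chr13:19623104-19632994) stood at 2.46 CPM, from 256 UMIs, and 7.84 CPM, from 858 UMIs, which is 3.19-fold higher (log2 1.67, 1.47 to 1.88). Frzb, also called Sfrp3 (chr2:80411970-80447625), stood at 12.6 and 25.4 CPM, from 1309 and 2784 UMIs, and was 2.02-fold higher (log2 1.02, 0.92 to 1.11). Sfrp1 (chr8:23411502-23449632), which had the most UMIs of the members, stood at 317 and 412 CPM, a log2 ratio of 0.38 (0.36 to 0.40) that stayed under 1.5-fold.

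The Dickkopf genes differed in opposite directions. Dkk2 (chr3:132085292-132180304) stood at 3.88 CPM in young cells, from 404 UMIs, and at 1.37 CPM in old cells, from 150 UMIs, which is 2.83-fold lower (log2 -1.50, -1.78 to -1.23). Dkk3 (chr7:112116017-112159057), a divergent family member whose part in Wnt signalling is less clear, stood at 23.2 and 32.3 CPM, a log2 ratio of 0.48 (0.40 to 0.55). Wif1 (chr10:121033960-121100650) was near the limit of detection, with 40 and 47 UMIs, and its log2 ratio of 0.16 had an interval from -0.48 to 0.81.

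Counted together, 3 of 10 members were higher by 1.5-fold or more in old cells (Sfrp2, Sfrp4 and Frzb), where 19.6% of all 15203 genes with at least 20 UMIs were, and 1 of 10 was at least 1.5-fold lower (Dkk2), where 12.5% were. The median log2 ratio was 0.41 over the members and 0.13 over all genes. With the cell counts thinned to 1000 UMIs each, the share of cells with an Sfrp2 UMI was 2.0% in young and 4.55% in old cells, against 10.3% and 21.03% unthinned. The thinned share was 1.07% and 2.38% for Frzb, 0.275% and 0.796% for Sfrp4 and 0.422% and 0.175% for Dkk2, so these 4 genes were found in more, or for Dkk2 fewer, cells at matched depth.

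**Figure D1:**
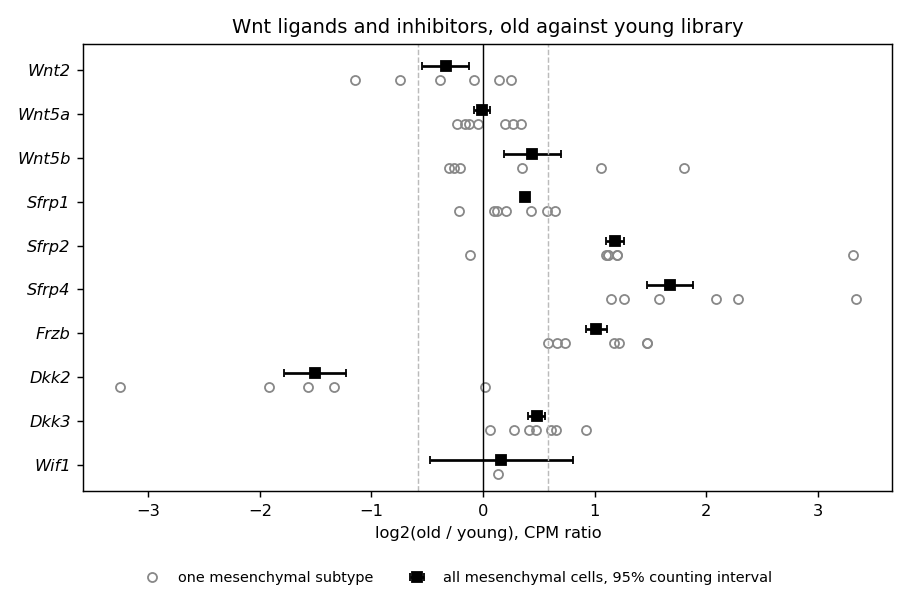
Log2 ratio of CPM, old library over young, for each member in all mesenchymal cells (squares, with 95% counting intervals) and in each mesenchymal subtype with enough UMIs (open circles); dashed lines mark 1.5-fold. The squares of Sfrp2, Sfrp4 and Frzb lie at 1.18, 1.67 and 1.02, right of the upper line, and that of Dkk2 at -1.50, left of the lower line.

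Markers of other cell types also differed inside the mesenchymal class. The summed blood endothelial markers stood at 13.3 CPM in young and 41.0 CPM in old mesenchymal cells, with 7 of 8 markers at least 1.5-fold higher and none at 0. Summed macrophage markers stood at 13.8 and 30.7 CPM (6 of 7 with enough UMIs higher), adipocyte markers at 2.91 and 27.0 CPM (5 of 6 higher, Lep at 0 in both libraries) and mesothelial markers at 16.7 and 6.44 CPM (6 of 7 lower, Muc16 at 0 in the old library). Sfrp2, Sfrp4 and Frzb had lower levels in old endothelial cells than in old mesenchymal cells, whereas Dkk2 was higher in them, as given below. In mesothelial cells Sfrp2 stood at 431% (young) and 469% (old) of its mesenchymal level. In the 30 young endothelial cells Frzb stood at 283%. Single genes made up much of some marker sums, young before old. Csf1r of the macrophage list stood at 12.6 and 24.2 CPM, Egfl7 of the endothelial list at 9.24 and 19.9 CPM. Cfd of the adipocyte list stood at 0.432 and 19.4 CPM. The macrophage markers Adgre1 and C1qa were at 0 in the young library. Whether the marker transcripts came from other cells was not tested, nor was their part in the ratios. The 8 mesenchymal markers summed to 6996 and 5887 CPM.

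Subtypes of mesenchymal cells were gated by further marker pairs or lists that hold no member. They were cycling cells (2332 young and 2255 old), contractile cells with genes such as Myh11 and Cnn1 (597 and 303), adipogenic cells with genes such as Pparg and Lpl (974 and 1319), adventitial progenitor cells with genes such as Pi16 and Dpp4 (30 and 823), cells with Cthrc1 and Wisp1 (1002 and 480), cells with Tbx20 and Tcf21 (144 and 59), cells with Nrn1 and Itga8 (68 and 5) and pericyte-like cells (5 and 89). Mixed cells passed several of these gates (898 and 1022), and 4143 young and 3955 old cells passed none and are called ungated. Gated cells were deeper than ungated ones, apart from the 5 young pericyte-like cells: the median was 7465 UMIs in young ungated cells and 12401.5 in young cycling cells.

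The old to young differences of Sfrp2, Sfrp4, Frzb and Dkk2 recurred inside most subtypes. They were read in the 7 subtypes with at least 50 cells in both libraries, against the share of all genes past 1.5-fold there. That share was 16% higher and 9.32% lower in contractile cells, 16.9% and 10.8% in cycling, 16.9% and 11% in Cthrc1, 19.6% and 11.2% in mixed, 19.8% and 11.8% in ungated, 20.9% and 10.7% in adipogenic and 21.5% and 12.3% in Tbx20 cells. Sfrp4 was at least 1.5-fold higher in 6 of the 6 subtypes where it had enough UMIs, with log2 ratios from 1.15 (adipogenic) to 3.34 (contractile, from 3 young and 17 old UMIs). Frzb was higher in 6 of 7, with ratios from 0.58 in cycling cells, just under the line, to 1.47 in adipogenic and contractile cells. Sfrp2 was higher in 6 of 7, and the exception was the contractile subtype, with 9.48 CPM in young and 8.75 CPM in old cells (log2 -0.12, -0.79 to 0.53). Its largest ratio, 3.32 (2.22 to 4.56), stood in Tbx20 cells on 9 young UMIs. Dkk2 was lower in 4 of 5 subtypes, from -1.33 in cycling to -3.25 in contractile cells, where 34 young UMIs faced 2 old ones. In Cthrc1 cells Dkk2 stood at 3.25 and 3.28 CPM (log2 0.01, -0.92 to 0.89), but over all cells with Cthrc1 and Wisp1, other gates ignored, it stood at 4.93 and 2.08 CPM (log2 -1.25, -1.79 to -0.74). With such overlapping gates throughout, Dkk2 was lower in 5 of 5, Sfrp4 higher in 6 of 6, Sfrp2 in 5 of 7, Frzb in 4 of 7 and Sfrp1 in 0 of 7.

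The other members differed between the libraries in fewer subtypes. Dkk3 was higher in 3 of 7 (Tbx20, Cthrc1 and mixed), Wnt5b in 2 of 6 (adipogenic and mixed) and Sfrp1 in 1 of 7 (Tbx20). Wnt2 was lower in 2 of 6, from 8.99 to 4.06 CPM in Cthrc1 cells (log2 -1.15, -1.91 to -0.45) and from 6.91 to 4.13 CPM in mixed cells. Wnt5a reached 1.5-fold in 0 of 7, with log2 ratios from -0.24 to 0.34. Wif1 had enough UMIs in ungated cells only (log2 0.13).

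Against ungated cells of the same library, Frzb, Wnt2 and Dkk2 each had a subtype with a much higher level. Frzb was highest in Tbx20 cells, which carry the transcription factors Tbx20 and Tcf21: 70.4 against 12.6 CPM in young (5.60-fold) and 112 against 29.3 CPM in old cells (3.82-fold), where 3.3% and 6.39% of all genes were at least 2-fold higher. Taken without regard to other gates, the 353 young cells with both transcripts were 3.46% of mesenchymal cells, held 4.96% of their UMIs and held 27.0% of the Frzb UMIs. In the old library the 135 such cells held 1.62% of the UMIs and 5.03% of the Frzb UMIs. Sfrp2, by contrast, was low in young Tbx20 cells, at 5.07 CPM against 24.5 CPM in ungated cells, where 6.29% of genes were at least 2-fold lower. In old Tbx20 cells it stood at 50.5 against 56.5 CPM, and the difference between the libraries was not tested.

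Wnt2 was highest in young Cthrc1 cells, a profile of matrix-producing fibroblasts, at 8.99 against 2.47 CPM in ungated cells (3.65-fold, where 1.12% of genes were at least 2-fold higher). The 2339 young cells with both Cthrc1 and Wisp1, whatever their other gates, held 54.8% of the Wnt2 UMIs and 28.1% of all mesenchymal UMIs. In old Cthrc1 cells Wnt2 stood at 4.06 against 2.72 CPM, under 2-fold, and the corresponding 1425 cells held 26.5% of Wnt2 UMIs and 18.0% of all UMIs. Dkk2 was the member that reached 2-fold higher in old Cthrc1 cells, at 3.28 against 1.14 CPM on 17 and 36 UMIs (1.1% of genes), and in the 1425 cells it stood at 2.08 CPM, under 2-fold.

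Dkk2 was highest in young cells with Nrn1 and Itga8, at 26.4 against 3.38 CPM in ungated cells (7.83-fold, 17 UMIs, where 6.47% of genes were at least 2-fold higher). The 260 young cells with these transcripts, other gates ignored, stood at 13.3 CPM and held 11.1% of the Dkk2 UMIs and 3.25% of all mesenchymal UMIs. The old library had 11 such cells and no Dkk2 UMI in them. Without any of these cells, the log2 ratio of old to young for Dkk2 in mesenchymal cells was -1.38. In the exclusive Nrn1 group Wnt5a stood at 4.67 against 24.5 CPM and Sfrp1 at 98.0 against 384 CPM, both among the 8.37% of genes at least 2-fold lower. The Wnt5a level there rested on 3 UMIs. In the 260 cells Wnt5a stood at 25.7 CPM against 27.1 CPM outside them.

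Sfrp2 was at least 2-fold lower than in ungated cells in 10 of the 15 pairs of library and subtype that had at least 50 cells. In cycling cells it stood at 9.80 against 24.5 CPM (young) and 21.02 against 56.5 CPM (old), where 3.18% and 4.03% of genes were at least 2-fold lower. In contractile cells it stood at 9.48 and 8.75 CPM (3.52% and 5.43%), and in Cthrc1 cells at 9.85 and 21.4 CPM (2.14% and 3.57%). The adipogenic gate was the one in which Sfrp2 lay above the ungated level in both libraries, at 34.3 CPM (young) and 78.7 CPM (old), a log2 difference of 0.48 in each. Sfrp1 in the old library stood at 246 CPM in cycling, 271 in Cthrc1, 278 in contractile, 570 in ungated, 645 in adipogenic and 754 in Tbx20 cells, and the intervals of Cthrc1 and contractile cells overlapped. In the young library Sfrp1 ran from 98.0 CPM in Nrn1 and 226 in cycling cells to 478 in adipogenic and 482 in Tbx20 cells, and the intervals of these last 2 overlapped.

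Over the 15 pairs, member values lay at least 2-fold above ungated cells 7 times and at least 2-fold below 30 times, and 6 and 22 of these had intervals that left out 0. Members had enough UMIs in all 15 pairs, apart from Dkk2 (14) and Wif1 (9). In single pairs, 1.06% to 6.47% of all genes were at least 2-fold higher and 1.5% to 8.37% lower. With only cells of 5000 to 15000 UMIs, and pairs that still had at least 50 cells, the counts were 9 above and 21 below. The share of all genes was not computed for that depth range. No member was 2-fold higher in cycling cells of either library (5.45% and 5.58% of genes were), in young or old contractile cells (1.55% and 2.53%), or in old mixed cells (1.15%). Mixed young cells had Wnt2 as the 1 higher member (1.24% of genes) and Sfrp2 and Wif1 as the lower ones (2.27%), and Sfrp2 alone was lower in mixed old cells (1.69%). In adipogenic cells 0 members were higher in either library (1.16% and 1.06% of genes), and Dkk2 was the 1 lower member in the young (2.26%) and none was in the old (1.5%). In old adventitial progenitor cells 0 were higher (1.43%) and Dkk2 was lower on 5 UMIs (2.03%). In old pericyte-like cells Dkk2 was higher on 2 UMIs (4.4%), and Wnt5b, on 1 UMI, and Sfrp2 were lower (5.91%). In old Tbx20 cells the 2 lower members were Wnt5b and Sfrp4, on 1 and 3 UMIs (7.36%).

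**Figure D2:**
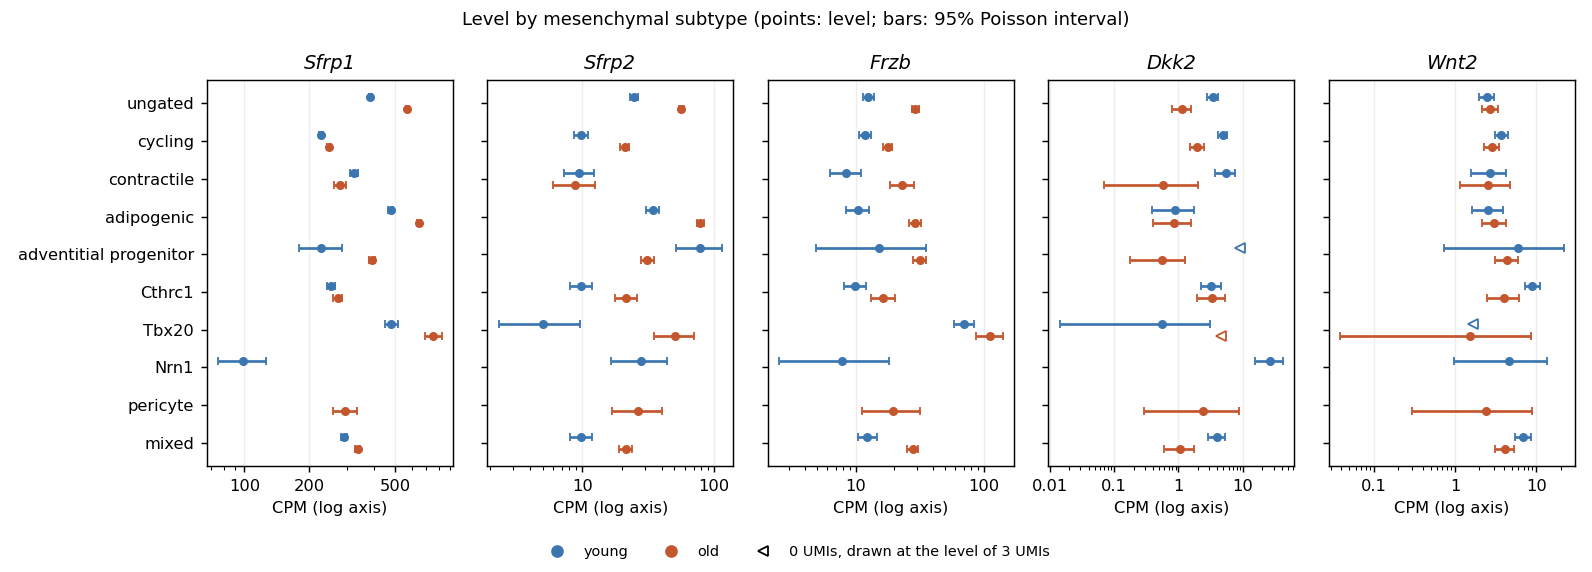
CPM (log axis) of 5 members in each mesenchymal subtype of the young and the old library, with 95% Poisson intervals; open triangles show the level of 3 UMIs where none was found, and subtypes under 30 cells are left out. Frzb stands out in Tbx20 cells at 70.4 and 112 CPM, Wnt2 in young Cthrc1 cells at 8.99 CPM and Dkk2 in young Nrn1 cells at 26.4 CPM.

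The series title names the SM22 alpha lineage, and SM22 alpha is the protein of Tagln, an actin-binding gene of smooth muscle. Lineage was not traced in these libraries, so mesenchymal cells were ranked by the share of their UMIs that came from Tagln and the Tagln-rich cells at the top of that order (2548 young and 2577 old) were set against as many Tagln-poor cells at its end. Tagln itself ran from 283 to 2327 CPM (young) and from 89.7 to 1770 CPM (old) by this choice. Sfrp2 was lower in Tagln-rich cells of both libraries, at 8.88 against 29.3 CPM in young (log2 -1.72, -1.94 to -1.51) and at 16.8 against 66.9 CPM in old cells (log2 -2.00, -2.14 to -1.85). Wnt2 differed in opposite directions: 5.92 against 2.41 CPM in young (log2 1.30, 0.85 to 1.76) and 2.35 against 4.11 CPM in old cells (log2 -0.80, -1.27 to -0.35). Dkk2 stood at 4.57 against 3.12 CPM and at 1.61 against 1.13 CPM, short of 1.5-fold in both.

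In the young library 1 of 10 members (Wnt2) was at least 1.5-fold higher in Tagln-rich cells, where 3.83% of all genes were, and 2 were lower (Sfrp2 and Wif1), where 7.41% were. In the old library 0 of 9 were higher (4.28% of genes) and 6 were lower (10.9% of genes): Wnt2, Wnt5b, Sfrp1, Sfrp2, Sfrp4 and Dkk3. Tagln-rich cells were also deeper, with medians of 9821.5 against 8161 UMIs in young and 10983 against 7975 UMIs in old cells.

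**Figure D3:**
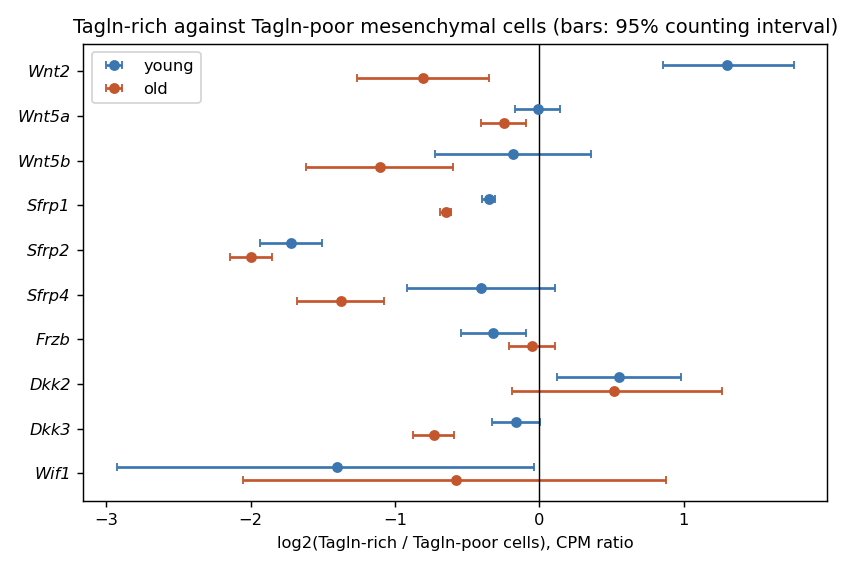
Log2 ratio of CPM between Tagln-rich and Tagln-poor mesenchymal cells, for each member and library, with 95% counting intervals. Sfrp2 lies at -1.72 and -2.00, while Wnt2 lies at 1.30 in young and -0.80 in old cells.

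Among the other cell types, mesothelial cells, the lining of serous surfaces, had more Wnt5a and Sfrp2 than mesenchymal cells. Wnt5a stood at 62.5 CPM in young mesothelial cells (95 of 235 cells with a UMI, 40.4%) against 27.1 CPM, and Sfrp2 at 72.3 CPM (28.5% of cells) against 16.8 CPM. The 46 old mesothelial cells, too few for the counts of genes used here, had 101 CPM of Wnt5a and 179 CPM of Sfrp2, which was 374% and 469% of the mesenchymal level. Sfrp1 went the other way, at 74.8 and 116 CPM, or 23.6% and 28.1% of the mesenchymal level. In the young library 2 members were at least 2-fold higher in mesothelial cells (10.8% of genes) and 5 were lower (10.2% of genes): Sfrp1, Sfrp4, Frzb, Dkk2 and Dkk3. Mesenchymal markers in these cells stood at 61.8% and 66.8% of their mesenchymal level, and 131 of the 235 young cells had just the 4 markers the gate asks for.

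Blood endothelial cells had the clearest Dkk2 signal. In the old library 65 of 1025 endothelial cells (6.34%, exact interval 4.93% to 8.01%) had a Dkk2 UMI against 1.01% of mesenchymal cells, with median depths of 10812 and 9438 UMIs, and the level was 8.39 against 1.37 CPM, 612% of the mesenchymal one (471% to 794%). Most other members lay near or below the share of mesenchymal transcripts found in these cells. The summed mesenchymal markers stood at 19.9% of their mesenchymal level in these cells, and Sfrp1 at 23.4%, Dkk3 at 15.3%, Sfrp4 at 13.9%, Sfrp2 at 12.3% and Wnt5a at 11.9%. Frzb at 44.2% (36.9% to 52.6%), Wnt5b at 78.5% and Wnt2 at 92.6% lay above the marker share. In all, 1 member was at least 2-fold higher (9.42% of genes) and 7 were lower (19.3% of genes), with Wif1 among the lower on 1 UMI. The 30 young endothelial cells held 1 Dkk2 UMI and 11 Frzb UMIs, the latter 283% of the mesenchymal level (141% to 508%).

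Schwann cells, which ensheathe nerves, had Sfrp1 at the mesenchymal level: 348 CPM in the young library (110%, 90.5% to 132%) and 397 CPM in the old (96.4%, 79.1% to 116%), with the summed mesenchymal markers at 35.8% and 48.8%. Dkk2 had 9 UMIs in 3 of 51 old Schwann cells (32.8 CPM) and none in 39 young ones. It was the 1 member at least 2-fold higher there (19.7% of genes), and Wnt5a, Sfrp2, Frzb and Dkk3 were the 4 lower (11.9% of genes). Of the gated Schwann cells, 29 of 39 and 36 of 51 had just the number of markers required. In old macrophages and adipocytes no member was at least 2-fold higher (14.8% and 17% of genes) and the same 5 were lower, Wnt5a, Sfrp1, Sfrp2, Frzb and Dkk3 (23.8% and 17% of genes). Sfrp1 in them stood at 28.5% and 16.1% of the mesenchymal level, beside 26.4% and 18.6% for the mesenchymal markers. Levels near the share of the mesenchymal markers were not read as expression by these cells, and their source was not tested.

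**Figure D4:**
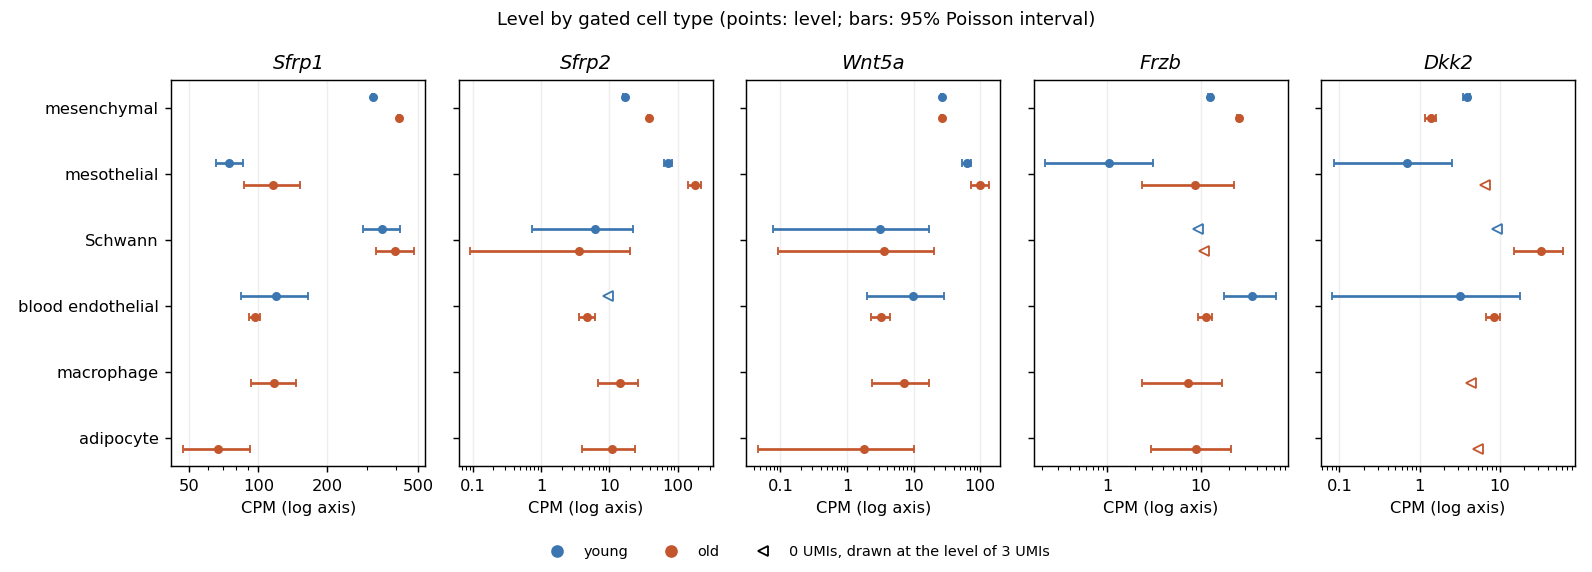
CPM (log axis) of 5 members in each gated cell type of the young and the old library, with 95% Poisson intervals; open triangles show the level of 3 UMIs where none was found, and types under 30 cells are left out. Wnt5a and Sfrp2 are highest in mesothelial cells, the intervals of Sfrp1 in Schwann cells take in its mesenchymal level, and old endothelial cells have Dkk2 at 8.39 CPM against 1.37 CPM in mesenchymal cells.

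Within mesenchymal cells some members went together and others apart. Cells with an Sfrp4 UMI had 26.9 CPM of Frzb against 12.2 CPM in the rest of the young cells (log2 1.13) and 42.5 against 24.2 CPM for old cells (log2 0.81). Cells with an Sfrp1 UMI had more Frzb (log2 1.26 and 1.02) and more Sfrp2 (0.43 and 0.86). Sfrp2 was lower, however, in cells with a Frzb UMI (log2 -0.59 and -0.25) and in cells with a Wnt5a UMI (-0.62 and -0.20). Cells with a Wnt2 UMI had less Frzb, at 4.26 against 13.0 CPM (young) and 14.2 against 25.9 CPM (old), log2 ratios of -1.60 and -0.87, and less Sfrp1 (-0.78 and -0.22). In the young library Dkk2 stood at 8.08 CPM in cells with Wnt2, on 36 UMIs, and at 3.69 CPM in the rest, while the 312 old cells with Wnt2 held 1 Dkk2 UMI, and the difference between the libraries was not tested. Depth also differed between such cells and the rest, by an amount that varied with the member. For Wnt2 in the young library the medians were 12154 and 9152 UMIs. For Sfrp4 in the young library they were 9395.5 and 9209. Cells with an Sfrp2 UMI were shallower, at 8227 against 9322.5 (young) and 8283.5 against 9789.5 (old). The part of depth in these pairings was not tested.

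Spread between cells also differed among the members. The variance of UMIs over mesenchymal cells divided by their mean, which is 1 for counts scattered evenly over equal cells, was 2.53 for Dkk2 in the young library and 1.53 for Wnt2, which had about as many UMIs. It was 7.13 for Sfrp1, 3.14 for Sfrp2, 2.85 for Frzb, 1.24 for Dkk3 and 1.09 for Wnt5b. The 102 young cells richest in Dkk2, 1% of the class, held 62.9% of its UMIs. Ranked in the same way by their own UMIs, this share was 43.5% for Wnt2, 50.7% for Wnt5b, 56.25% for Sfrp4 and 100% for Wif1. A gene found in few cells gives a high share by this ranking.

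The genes of most similar pattern were ranked by Pearson correlation of log2(CPM + 1) over the 22 classes with at least 50 cells, which share libraries and cells. Sfrp1 went with St6galnac6 (r = 0.93), Srpx2 (0.87) and Fam161a (0.86), and Dkk3 with the elastic fibre genes Efemp2 (0.95) and Fbn1 (0.93) and with Prrx1 (0.93), a mesenchymal transcription factor. Wnt5a went with Emx2 (0.96), Mgat3 (0.92) and Plekhh2 (0.89). Frzb went with Tle6 (0.90), Kcne4 (0.89) and Enc1 (0.88). Sfrp2 went with Serping1 (0.81), Lgi2 (0.80) and Prickle1 (0.78), and Sfrp4 with Gm2379 (0.93), AC126055.1 (0.91) and Cdr2l (0.90). The leading partners of 3 rarer members were Hdx for Wnt2 (0.85), Prr3 for Wnt5b (0.85) and Bmp2 for Wif1 (0.76).

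Around the members, 75 further genes of the pathway were listed by role, and 55 had at least 20 UMIs in mesenchymal cells. Of these, 10 were higher and 13 lower by 1.5-fold or more in old cells, beside the 19.6% and 12.5% of all genes, and the median log2 ratio was 0.04. With a median-of-ratios scale, which lowers each log2 ratio by 0.13, the split was 5 higher and 16 lower, beside 15.3% and 15.5% of all genes. Of the 16 other ligands 6 had enough UMIs: Wnt11 was higher (1.61 to 3.66 CPM, log2 1.18), Wnt9a (1.97 to 0.822 CPM, log2 -1.26) and Wnt16 (1.07 to 0.119 CPM, log2 -3.17) were lower, and Wnt4 had a log2 ratio of 0.45. Wls, the carrier that brings Wnts to the cell surface, stood at 216 and 145 CPM (log2 -0.57), and the R-spondin Rspo3, which strengthens Wnt signals, at 62.3 and 43.2 CPM (log2 -0.53), both short of 1.5-fold but past it on the median-of-ratios scale (log2 -0.70 and -0.66).

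Among the other secreted inhibitors, Notum and Draxin were higher in old cells, as Sfrp2, Sfrp4 and Frzb were. Notum, an enzyme that strips the lipid from Wnts, had 20 young and 218 old UMIs (10.4-fold higher, log2 3.37), and Draxin, which binds Lrp6, had 183 and 1229 UMIs (6.39-fold higher, log2 2.67). They were the 2 higher of 4 measured, beside 19.6% of all genes, and were past 1.5-fold on the median-of-ratios scale too. Notum was higher in 4 of 4 and Draxin in 6 of 6 subtypes with enough UMIs, the Draxin ratio in contractile cells resting on 13 and 11 UMIs (log2 0.60, -0.71 to 1.87).

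Of the receptors, 4 of 19 were higher and 5 lower, beside 19.6% and 12.5% of all genes. Fzd1 (68.5 to 108 CPM, log2 0.65), Fzd7 (0.65), Lgr4 (0.59) and Fzd9 (1.45, on 8 and 23 UMIs) were higher, and Fzd9 alone stayed past 1.5-fold on the median-of-ratios scale, where Fzd1 and Fzd7 stood at 0.52 and Lgr4 at 0.46. Fzd2 (32.1 to 17.3 CPM, log2 -0.89), Fzd6 (-1.27), Fzd8 (-0.74), Ror1 (48.1 to 29.0 CPM, -0.73) and the R-spondin receptor Lgr5 (44 and 6 UMIs, -2.95) were lower, Fzd2 in 7 of 7 subtypes. Inside the cell, the beta-catenin gene Ctnnb1 had a log2 ratio of 0.09, and Dvl1 at 0.63 was the 1 of 11 past 1.5-fold, and 0 of 11 were on the median-of-ratios scale (Dvl1 at 0.50).

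Known target genes of beta-catenin signalling were 3 higher and 6 lower of 12 measured, beside 19.6% and 12.5% of all genes, and 2 higher and 7 lower on the median-of-ratios scale. Axin2, the most widely used read-out gene, had 171 young and 30 old UMIs (5.99-fold lower, log2 -2.58), Nkd1 stood at 30.4 and 11.3 CPM (-1.42), and Lbh stood at 365 and 57.3 CPM (-2.67). Axin2 was lower in 4 of 4, and Nkd1 and Lbh were lower in 7 of 7 subtypes. Tcf7, which encodes a TCF/LEF factor, was also lower (-0.77). Myc at 0.68 (0.55 on the median-of-ratios scale, short of 1.5-fold) was higher, as was Notum, which is listed as a target too. Sp5, with 3 and 79 UMIs, was also higher (log2 4.65, 3.05 to 6.95), the largest ratio of the list. Myc was higher in 5 of 7 and Sp5 in 2 of 2 subtypes with enough UMIs.

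**Figure D5:**
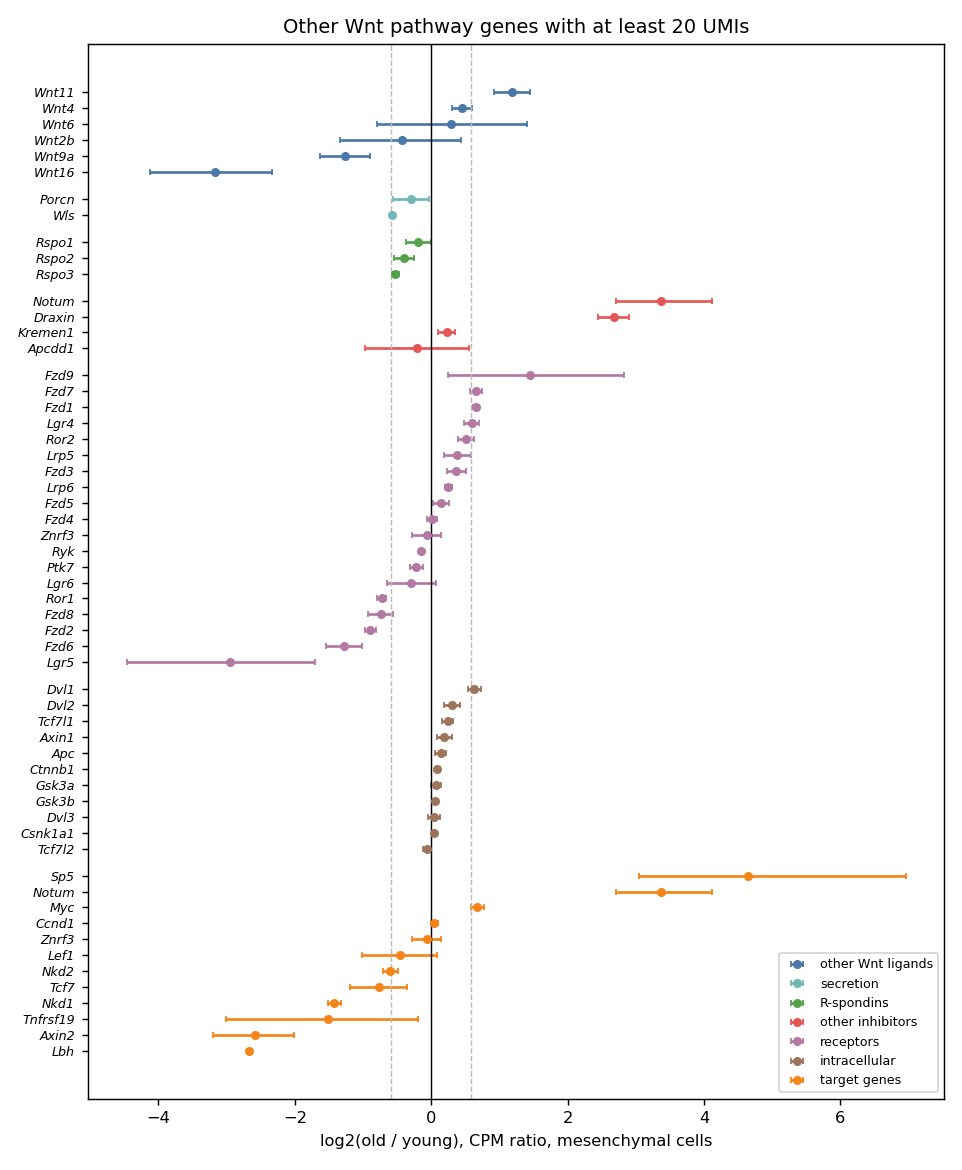
Log2 ratio of CPM, old library over young, in mesenchymal cells for the pathway genes with at least 20 UMIs, coloured by role, with 95% counting intervals; dashed lines mark 1.5-fold, and Notum and Znrf3 appear under both of their lists. Sp5 at 4.65, Notum at 3.37 and Draxin at 2.67 lie to the right. Wnt16 at -3.17, Lgr5 at -2.95, Lbh at -2.67, Axin2 at -2.58 and Nkd1 at -1.42 lie to the left.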

How the data were processed

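The authors deposited raw UMI counts for every gene and barcode, written by Cell Ranger 3.0.1 per the file headers. The build was mm10 per the submitters' processing notes, and Chromium 3′ chemistry version 2 was used per the labels' protocols. The annotation release, the barcode rule and the handling of strand are not given in the sources at hand, so genes that overlap a member on the opposite strand could share reads: Gm26771 with Sfrp2 (178 and 206 UMIs in young and old mesenchymal cells), Fbxl14 with Wnt5b (1148 and 1225) and Gm2670 with Wnt5a (10 and 17). The files held 13104 young barcodes with 130398999 UMIs and 14636 old ones with 147166475. Gene positions are from GENCODE vM21 on GRCm38, which held 30934 of the 31053 gene identifiers, and promoters from RefSeq on GRCm38.p6.

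Cells needed 500 genes or more, and no more than 10% of UMIs from mitochondria. Scrublet (scanpy 1.11.5) marked 0 cells at its automatic threshold, so the cells with the highest scores were removed, 0.8% per 1000 cells (1302 young and 1504 old). A type gate needs a UMI of at least 4 of its markers (3 for lymphatic endothelial cells and lymphocytes). UMIs were summed per library and class. Poisson, binomial (Clopper-Pearson) and conditional ratio intervals are exact for their own counting models. The ratio intervals were tested on simulated Poisson counts alone. That test cannot show how they hold for genes such as Sfrp1, whose counts varied more between cells than Poisson counts. Such extra spread is not covered by the intervals. A gene was counted as higher or lower past 1.5-fold (age, Tagln share) or 2-fold (types, subtypes) if it had at least 20 UMIs over both sides and both classes at least 50 cells. A class with 0 UMIs was set to 3, and then counted only where that bound passed the fold. Named pathway genes were the most changed, at most 6 per list, among those with at least 100 UMIs, and all those counted in a direction where 5 or fewer were. The members and lists were chosen with earlier results of these data known. Alternatives were other cell filters, no doublet removal, gates with 1 marker more or fewer, another scale, no UMI minimum, overlapping gates, thinned cells and other folds.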

Additional observations from a re-analysis of the deposited data

Results flagged for a closer look

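Wnt2 had opposite differences between Tagln-rich and Tagln-poor cells in the 2 libraries, with log2 ratios of 1.30 (young) and -0.80 (old), and neither interval reached 0. The difference between the libraries was not tested.

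Wnt5a, at -0.01 between the libraries over all mesenchymal cells, had log2 ratios of old to young of 0.26 in adipogenic and 0.20 in ungated cells but -0.24 in cycling cells, with intervals that left out 0 and differences that were not tested.

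Sfrp1 was above its young level in 6 subtypes, with log2 ratios of 0.65 in Tbx20, 0.57 in ungated, 0.43 in adipogenic, 0.21 in mixed, 0.12 in cycling and 0.10 in Cthrc1 cells, and below it in contractile cells at -0.22. These intervals left out 0 as well, they cover counting error only, and the difference between subtypes was not tested.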

How the results depend on the processing

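Of 94 recomputed counts of genes past a fold, 91 stayed within 1.5 times the reported count. With a median-of-ratios scale, the pathway genes higher in the old library numbered 5 in place of 10. With a fold of 1.5 in place of 2, members numbered 15 in place of 7 above and 54 in place of 30 below ungated cells over the subtypes, by the lower threshold itself. The share of all genes past 1.5-fold against ungated cells was not computed. Over all alternatives the log2 ratio of old to young in mesenchymal cells ran from 1.06 to 1.27 for Sfrp2, 1.54 to 1.76 for Sfrp4, 0.89 to 1.35 for Frzb and -1.84 to -1.34 for Dkk2. Wnt5b ran from 0.31 to 0.91 and passed 1.5-fold without cycling cells (0.68), in cells thinned to 1000 UMIs (0.91) and in cells with 5000 to 15000 UMIs (0.64). The thinned value is 1 random draw on few UMIs. In a separate draw to 1000 UMIs, 26 young cells (0.255%) and 33 old cells (0.320%) had a Wnt5b UMI, so passing 1.5-fold at that depth is not settled. Wnt2 ran from -0.46 to 0.07 and Wnt5a from -0.14 to 0.30, so their signs are not settled by these data. The Wnt2 value of 0.07 came from the cells thinned to 1000 UMIs, and on full counts it was -0.33. In the separate draw to 1000 UMIs, only 27 young and 29 old cells had a Wnt2 UMI. The depth range, the requirement that intervals leave out 0, and the fits without the Nrn1 or the Tbx20 cells were chosen after seeing the data. No paired analysis was possible because each age has 1 library, and for the same reason no replicate could be left out. Depth limits Wif1, and every value of a class under 100 cells.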

Other observations

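The old blood endothelial cells with a Dkk2 UMI were set against the other endothelial cells of that library, by lists of arterial and venous genes chosen after the Dkk2 values were seen. Of 8 arterial genes listed, 7 had at least 20 UMIs. Of these, 5 were at least 2-fold higher in the 65 cells with Dkk2 than in the other 960, where 4.17% of all genes were, and 1 was at least 2-fold lower (Bmx, 3.65 against 13.2 CPM). Sox17, an arterial transcription factor, stood at 85.1 against 4.24 CPM (20.1-fold, 70 and 47 UMIs), and the arterial connexin gene Gja5 at 21.9 against 0.451 CPM (48.5-fold, 18 and 5 UMIs). The Notch ligand gene Dll4 stood at 10.9 against 1.35 CPM, and Sema3g, under the minimum with 11 and 4 UMIs and not counted, at 13.4 against 0.361 CPM. Gja4, also on the arterial list, lay the other way but within 2-fold, at 2.43 against 3.61 CPM (2 and 40 UMIs). Of 8 venous genes, 0 were higher and 4 were at least 2-fold lower, where 5.97% of genes were. The chemokine-binding receptor gene Ackr1 stood at 37.7 against 158 CPM and the adhesion gene Selp at 537 against 1104 CPM. The venous genes Nr2f2 (0.83-fold), Ephb4 (1.00-fold), Plvap (1.13-fold) and Vwf (1.36-fold) differed by less than 2-fold. Median depths were 11668 and 10787.5 UMIs. These cells come from 1 library, and the young library had 30 endothelial cells, too few for the same comparison.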
